A study of Mus musculus with 6 samples.

Results

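Steroid hormone signalling was followed in mouse skin through 9 genes: the receptor genes Esr1, Pgr, Nr3c1 and Nr3c2, the enzyme genes Srd5a1, Srd5a3 and Hsd11b1, and the glucocorticoid-induced genes Fkbp5 and Tsc22d3. They were taken by name from a table of 23934 genes, all 9 were present, and all 9 were among the 15935 genes that passed the filter on low values (at least 1 CPM, a count scaled to a fixed library total, in 3 libraries). Sorted skin cells were profiled by RNA sequencing at day 50 in 3 control and 3 Zfp750 knockout libraries. The knockout samples are labelled ZNF750 fl/fl, Rosa26 -/- and Lrig1-CreER +/- or Lrig1-CreERT2 +/-. Of the control samples, 2 are labelled ZNF750 wt/fl with Rosa26 -/- and 1 is labelled ZNF750 wt/wt with Rosa26 +/-, and all 3 carry the same kind of Cre allele as the knockouts. Every sample of both groups had received 4-hydroxytamoxifen, itself a ligand of estrogen receptors, either on days 4 to 7 or on days 5 to 8 after birth. Lrig1 is a gene of the upper hair follicle and drives the recombinase, and the cells are described as tdTomato-expressing. Libraries go here by their column names, S2 to S4 for controls and S5 to S7 for knockouts, since these names give the group but match no sample number. Whether the libraries come from different mice is not stated, and p-values then reflect only library-to-library spread, which may be technical.

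Steroid hormones enter cells and bind receptors that are themselves transcription factors. Hsp90 chaperones hold the receptors ready for hormone, and ligand-bound receptors act on genes carrying their response elements. Enzymes within the target tissue also set the local hormone supply: some regenerate active glucocorticoid or androgen and others inactivate it. In skin, glucocorticoid signalling restrains inflammation and fibroblast growth, while androgens and estrogens act on hair follicles, sebaceous glands and dermal fibroblasts.

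The libraries held 15310161 to 20705441 estimated reads. Zfp750, the targeted gene, was at 41.9, 3.75 and 314 normalized units in the S2, S3 and S4 controls, against 4.90, 1.82 and 7.16 in knockout S5, S6 and S7. Control S3 thus lay inside the knockout range, and Zfp750 cannot check how that library is labelled. Summed fibroblast markers were at 2993900 to 8926200 for controls against 933750 to 1231100 for knockouts, the groups being apart (exact 2-sided permutation p = 0.1, the smallest possible with 3 against 3). A large part of these sums was the collagen gene Col1a1. Of the 10 markers 3 had a positive log2 fold change, and limma called 2 higher and 0 lower, against 6.71% of all tested genes called. Summed keratinocyte markers were far lower, at 577 to 30494 and 3270.3 to 24155 (exact permutation p = 1). By these markers fibroblast transcripts far exceeded keratinocyte ones, although Lrig1 is best known from epithelium. Fat cell marker sums also separated the groups, at 479 to 836 for controls against 919 to 5338 for knockouts (exact permutation p = 0.1), while leukocyte sums overlapped at 1285 to 3143 and 1624 to 11376. Leukocyte markers had a positive log2 fold change for 9 of 10 (median 2.03) and endothelial ones for 6 of 7 (median 1.71), and all 8 skeletal muscle markers had a negative one (median -1.63). By limma 0 of these were called, with 2, 3 and 5 at an unadjusted p under 0.05 in turn, where 23.2% of all tested genes had such a p. The part of these cell types in the results below was not tested. None of the markers on these 6 lists was at 0 in all 6 libraries. In such mixed samples, fewer cells of a type and less RNA per cell cannot be told apart. Over all tested genes, 657 were higher and 413 lower in the knockout at an adjusted p under 0.05, or 1057 and 283 after rescaling the libraries to a common total, which raised the median log2 fold change by 0.30.

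Of the 9 genes, 2 rose in the knockout (Hsd11b1 and Fkbp5), 2 fell (Esr1 and Nr3c1) and 5 did not pass the test. Across all tested genes 6.71% were called, 4.12% as higher and 2.59% as lower, and 23.2% had an unadjusted p under 0.05. The groups did not overlap for 6 of the 9 genes, 2 being higher and 4 lower in the knockout, and the same held for 28.8% of all tested genes. All 4 receptor genes were on the lower side, where 51.2% of all tested genes had a positive log2 fold change. Of 7 other tested genes on the receptor list, 4 had a positive one. Srd5a1, Srd5a3 and Tsc22d3 had overlapping groups. The plot of values by library shows these levels.

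**Figure D1:**
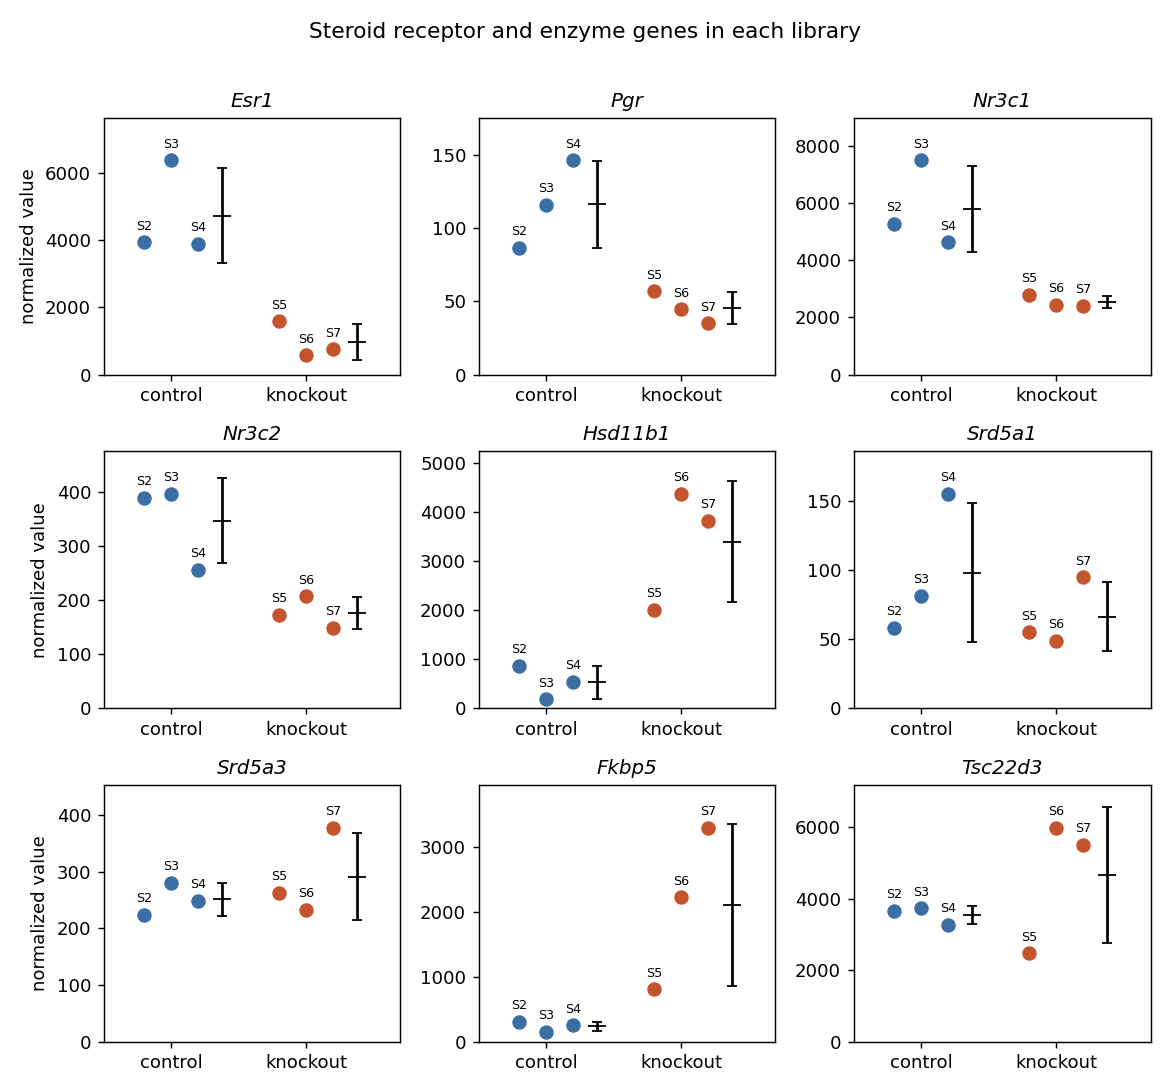
Normalized value (deposited normalized counts, linear axis from 0) of each of the 9 genes in the 3 control (blue) and 3 knockout (orange) libraries; black marks are the mean ± SD of 3 libraries. The groups separate for Esr1, Pgr, Nr3c1, Nr3c2, Hsd11b1 and Fkbp5, and knockout S5 lies below all 3 controls for Tsc22d3 while S6 and S7 lie above them.

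Esr1 encodes estrogen receptor alpha (ENSMUSG00000019768, chromosome 10, 4561593 to 4955615 on the plus strand in the table's own coordinates). It was at 3936, 6376 and 3898 normalized units in the S2, S3 and S4 controls, against 1582, 567 and 752 in knockout S5, S6 and S7. Every control lay above every knockout, with S3 highest among controls and S5 highest among knockouts. The mean went from 4737 ± 1420.1 to 967 ± 540.5 (SD, n = 3 each), 4.90 times lower, and the log2 fold change was -2.38 ± 0.38 (SE; 95% interval -3.28 to -1.49; limma adjusted p = 0.0141). Leaving out S2, S6 or S7 ended the call, with the adjusted p at 0.0549, 0.0550 and 0.0535, while the log2 fold change stayed between -2.80 and -2.07 over the 6 fits that left out 1 library.

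Pgr encodes the progesterone receptor, a gene that estrogen receptor alpha induces in many tissues (ENSMUSG00000031870, chromosome 9, 8899834 to 8968613, plus strand). It was at 86.4, 116 and 146 in control libraries against 56.9, 44.7 and 35.0 in knockouts, or 68 to 174 and 44 to 58 estimated reads. The groups did not overlap, but Pgr stood just outside the threshold (log2 fold change -1.19 ± 0.29, 95% interval -1.86 to -0.52, adjusted p = 0.0520). It passed after scaling to a common upper quartile (adjusted p = 0.0486) and in a fit without an intensity trend (0.0483). It did not pass with a common total (log2 fold change -0.91, adjusted p = 0.164) or with no filter (0.0795). Nor did it pass in any fit that left out 1 library (0.0669 to 0.149).

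Nr3c1 encodes the glucocorticoid receptor (ENSMUSG00000024431, chromosome 18, minus strand). It was at 5269.9, 7482 and 4615 among controls, against 2782, 2435 and 2391 among knockouts. The knockout libraries lay close together, all below the lowest control, and the controls were spread more widely. The mean fell from 5789 ± 1502 to 2536 ± 214 (SD, n = 3 each; log2 fold change -1.16 ± 0.21 SE, 95% interval -1.65 to -0.67, adjusted p = 0.0218). The call ended when S2, S6 or S7 was left out, with adjusted p = 0.0797, 0.0930 and 0.0774 in turn.

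Nr3c2 encodes the mineralocorticoid receptor, which also binds glucocorticoids (ENSMUSG00000031618, chromosome 8, 77626070 to 77971642, plus strand). Its levels were 389, 396 and 256 for controls against 173, 207 and 149 for knockouts, without overlap. The log2 fold change was -0.93 ± 0.23 (95% interval -1.47 to -0.38) and did not pass the test (adjusted p = 0.0601). It passed with a filter of 5 CPM (adjusted p = 0.0491), with a common upper quartile (0.0496) and without control S4 (0.0271). It did not pass with a common total (log2 fold change -0.62, adjusted p = 0.166), with no filter (0.0716) or without the intensity trend (0.0794). Nor did it pass when any other library was left out (0.116 to 0.210). Within each library the ratio of Nr3c1 to Nr3c2 was 13.6, 18.9 and 18.1 in control libraries against 16.1, 11.8 and 16.1 in knockouts. The mean log2 ratio was 0.23 lower in knockouts (exact permutation p = 0.4), and the ratios of the groups overlapped.

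Among the enzyme genes, Hsd11b1 encodes the hydroxysteroid dehydrogenase that in intact cells regenerates active glucocorticoid from its inert keto form (ENSMUSG00000016194, chromosome 1, 192903942 to 192946384, minus strand). It was at 859, 179 and 539 in the S2, S3 and S4 controls, against 2005, 4368 and 3825 in knockout S5, S6 and S7. The lowest knockout was above the highest control, and both groups were spread widely. The mean rose from 526 ± 340.4 to 3399 ± 1237 (SD, n = 3 each), 6.47 times, with a log2 fold change of 2.85 ± 0.55 (SE; 95% interval 1.56 to 4.15; adjusted p = 0.0268). Without S6 or S7 it was not called (adjusted p = 0.112 and 0.0863). Hsd11b1 is also expressed in fat cells, whose summed markers were higher in the knockouts as given above. Of 6 tested fat cell markers 0 passed the limma test, 5 had an unadjusted p under 0.05 (23.2% of all tested genes did), and the median log2 fold change was 1.81. Their part in the Hsd11b1 values was not tested.

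H6pd, which supplies the reduced cofactor that this enzyme needs inside the endoplasmic reticulum, rose with it. It was at 1760.0, 2086 and 1517 among controls, against 5219.7, 5899.6 and 7707 among knockouts (log2 fold change 1.80 ± 0.21, adjusted p = 0.00449), and it kept its call in all 6 fits that left out 1 library (adjusted p = 0.00723 to 0.0305). Hsd11b2, whose product runs the opposite, inactivating reaction, was low throughout, at 24.1, 37.5 and 27.8 for controls against 22.6, 10.03 and 14.3 for knockouts (log2 fold change -0.67 ± 0.33, adjusted p = 0.277).

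Srd5a1 encodes a steroid 5-alpha reductase that makes dihydrotestosterone and is the main form in skin (ENSMUSG00000021594, chromosome 13, 69721568 to 69759562, minus strand). It was at 58.3, 81.6 and 155 in control libraries against 55.1, 48.7 and 94.97 in knockouts. The groups overlapped and the highest value was that of control S4 (log2 fold change -0.46 ± 0.39, 95% interval -1.38 to 0.46, adjusted p = 0.533). Srd5a3, named for its similarity to that enzyme, works mainly as a polyprenol reductase in dolichol synthesis for protein glycosylation (ENSMUSG00000029233, chromosome 5, 76288118 to 76303352, plus strand). It was at 224, 281 and 249 among controls, against 263, 232 and 378 among knockouts, again overlapping (0.18 ± 0.22, 95% interval -0.34 to 0.70, adjusted p = 0.676). The ratio of Srd5a1 to Srd5a3 was 0.261, 0.290 and 0.624 for controls against 0.210, 0.209 and 0.251 for knockouts. These ratios did not overlap (p = 0.1 by exact permutation, with 0.12 after adjustment over 6 ratios). The difference of the mean log2 ratios was -0.64, and -0.28 without control S4, which had the highest ratio. Srd5a1 held only 45.9 to 184.8 estimated reads.

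Fkbp5 encodes an Hsp90 co-chaperone that lowers the hormone affinity of the glucocorticoid receptor, and its gene is itself a standard glucocorticoid target (ENSMUSG00000024222, chromosome 17, 28618068 to 28736502, minus strand). It was at 301, 154 and 249 in the controls and at 803, 2220.3 and 3289.9 in knockout S5, S6 and S7. All 3 knockouts lay above the highest control, with S5 the lowest of them. The mean rose from 235 ± 74.8 to 2104 ± 1247 (SD, n = 3 each), 8.97 times (log2 fold change 2.95 ± 0.50 SE, 95% interval 1.78 to 4.11, adjusted p = 0.0169). It was not called without S2, S3 or S6 (adjusted p = 0.0566, 0.0507 and 0.0808), with log2 fold changes of 3.15, 2.68 and 2.80. The intervals of Fkbp5 and Hsd11b1 overlapped widely, and Hsd11b1 had the larger log2 fold change without S2 (3.33) or without S7 (2.73 against 2.52).

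Tsc22d3 encodes GILZ, a leucine zipper protein induced by glucocorticoids in leukocytes and other cells (ENSMUSG00000031431, chromosome X, 139440277 to 139501409, minus strand). The controls were at 3670.0, 3733 and 3266, and the knockouts at 2475, 5995 and 5522, so that S5 was below every control and S6 and S7 above (log2 fold change 0.29 ± 0.33, 95% interval -0.48 to 1.06, adjusted p = 0.647). Over the 6 fits that left out 1 library the log2 fold change ran from 0.059 (without S6, adjusted p = 0.945) to 0.70 (without S5, adjusted p = 0.0869). The leukocyte transcript Ptprc was at 36.9, 36.2 and 579 in the controls and 133, 679 and 1158 in S5, S6 and S7, and its part in the Tsc22d3 values was not tested.

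The promoter windows of the 2 genes that rose, shown because both genes were called higher, differed in CG content. Each runs from 250 bases before to 50 bases after a RefSeq start on GRCm38.p6 and is printed 5′ to 3′ on the gene's strand, with CG dinucleotides in capitals. Windows were matched by symbol for 8 of the 9 genes, 11 windows in all. The Fkbp5 window lies at chr17:28486100-28486399 (minus strand) and the Hsd11b1 window at chr1:193242311-193242610 (minus strand). In GENCODE M21 these genes reach further upstream, to 28517527 for Fkbp5 and 193264075 for Hsd11b1. Both windows thus lie inside the annotated genes, and starts further upstream are not covered.
Fkbp5: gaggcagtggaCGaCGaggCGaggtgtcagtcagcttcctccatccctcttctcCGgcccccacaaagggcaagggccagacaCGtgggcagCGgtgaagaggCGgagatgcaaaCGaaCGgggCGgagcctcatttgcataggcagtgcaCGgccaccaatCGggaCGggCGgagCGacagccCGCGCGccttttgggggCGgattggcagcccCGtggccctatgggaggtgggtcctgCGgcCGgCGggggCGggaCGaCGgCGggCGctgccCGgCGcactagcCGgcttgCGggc
Hsd11b1: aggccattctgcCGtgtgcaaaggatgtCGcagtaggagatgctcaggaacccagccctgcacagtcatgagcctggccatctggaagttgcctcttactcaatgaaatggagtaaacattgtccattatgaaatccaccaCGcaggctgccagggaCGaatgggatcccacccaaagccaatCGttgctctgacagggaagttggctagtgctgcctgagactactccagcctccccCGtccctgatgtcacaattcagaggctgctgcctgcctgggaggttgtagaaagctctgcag
The Fkbp5 window held 32 CG dinucleotides and 4 matches of the GC box hexamer GGGCGG, and the Hsd11b1 window held 6 and 0, where the median over 32851 windows is 7 CG. GGGCGG occurs on either strand in 35.7% of these windows. TGTTCT, an arm of the glucocorticoid response element, is on either strand of 19.0% of all windows, and of the 11 windows 1 held it, a Tsc22d3 window. AGGTCA, an arm of the estrogen response element, is in 16.3% of all windows and in 0 of the 11. These letter matches describe the windows only.

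The 9 genes were also set against each other as ratios within each library. The plain ratios do not depend on how the libraries are scaled, while the tested log2 ratios carry the pseudocount and do so slightly. Fkbp5 was 0.0571, 0.0205 and 0.0539 of the Nr3c1 value in control S2, S3 and S4 and 0.289, 0.912 and 1.38 of it in knockout S5, S6 and S7. On the log2 scale this ratio was 4.11 higher in the knockouts. Hsd11b1 to Nr3c1 was 0.163, 0.0239 and 0.117 in control libraries against 0.721, 1.79 and 1.6 in knockouts, 4.02 higher on the log2 scale. Since Fkbp5 and Hsd11b1 were higher and Nr3c1 lower in every knockout, these ratios had to separate, and they describe the size of the gap without adding support to the calls. Tsc22d3 to Nr3c1 was 0.696, 0.499 and 0.708 among controls, against 0.890, 2.46 and 2.31 among knockouts, 1.45 higher on the log2 scale and without overlap. Esr1 to Pgr was 45.5, 54.9 and 26.6 for controls against 27.8, 12.7 and 21.5 for knockouts, and on the log2 scale used for the test, with the pseudocount, it was 1.19 lower. The plain Esr1 to Pgr ratios overlapped, control S4 lying below knockout S5, and the log2 ratios separated with the pseudocount used. For Tsc22d3 to Nr3c1 and Esr1 to Pgr the exact permutation p was 0.1, the smallest possible, or 0.12 adjusted over 6 ratios. For Esr1 to Pgr it was 0.2 with a pseudocount of 0.1 CPM. The plot of ratios shows them by library.

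**Figure D2:**
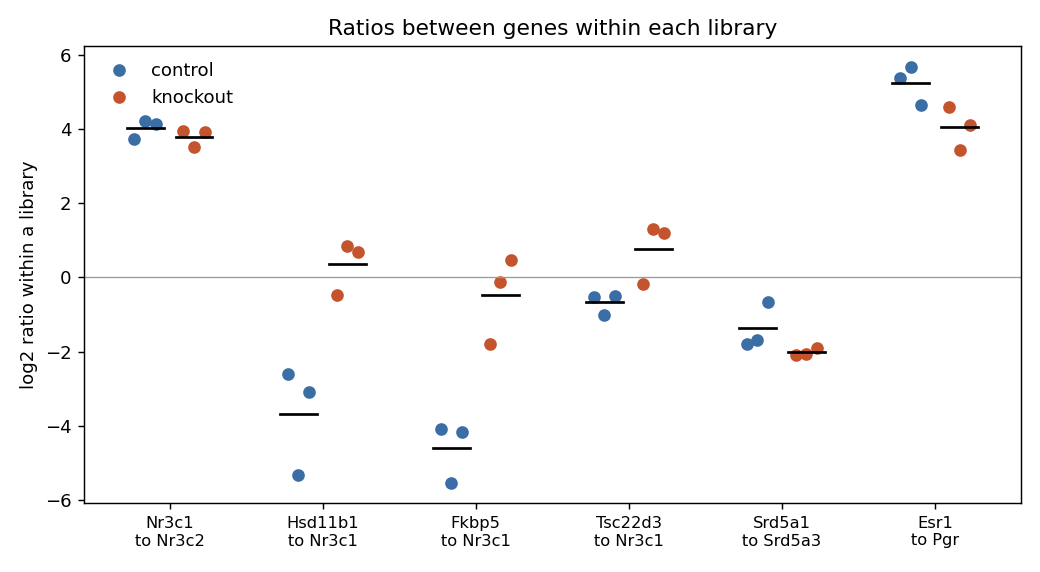
Log2 ratio between pairs of genes in each library (after adding the pseudocount to both), for 3 control (blue) and 3 knockout (orange) libraries; black lines are group means. Hsd11b1 to Nr3c1 and Fkbp5 to Nr3c1 are 4.02 and 4.11 higher in the knockouts, and Nr3c1 to Nr3c2 differs by 0.23.

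Per kilobase of merged exons, so that genes of different length can be compared, the order of levels changed between the groups. In the controls Tsc22d3 (mean 819 per kilobase) and Nr3c1 (753) were highest, with overlapping library values, followed without overlap by Esr1 (347) and then Hsd11b1 (124). Srd5a3 (54.0), Nr3c2 (53.6), Srd5a1 (33.8), Fkbp5 (24.8) and Pgr (13.6) followed, each neighbour overlapping the next. Hsd11b1 overlapped the first of these too, since in control S3 it (42.0) lay below Srd5a3 (60.5) and Nr3c2 (61.2). In the knockouts Tsc22d3 (1074) was followed by Hsd11b1 (799.7), with overlap, and both lay above Nr3c1 (330.0). Fkbp5 (222), Esr1 (70.8) and Srd5a3 (62.6) came next, each overlapping its neighbour, and then Nr3c2 (27.2), Srd5a1 (22.8) and Pgr (5.33). By group means Fkbp5 had thus moved from the eighth place to the fourth, and Hsd11b1 from the fourth to the second. These lengths are from another annotation than the authors' own, so small steps in the order are uncertain.

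The libraries within a group did not lie equally far apart. For 5 of the 6 genes whose groups were separated, knockout S5 was the one nearest to the control mean, the exception being Nr3c2, where it was S6. Among all tested genes with separated groups S5 held that place in 49.2%. On the control side S3 was farthest from the knockout mean for 5 of the 6, the exception being Pgr with S4, against 43.9% of all such genes. The plot of differences gives the fold changes with and without each library.

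**Figure D3:**
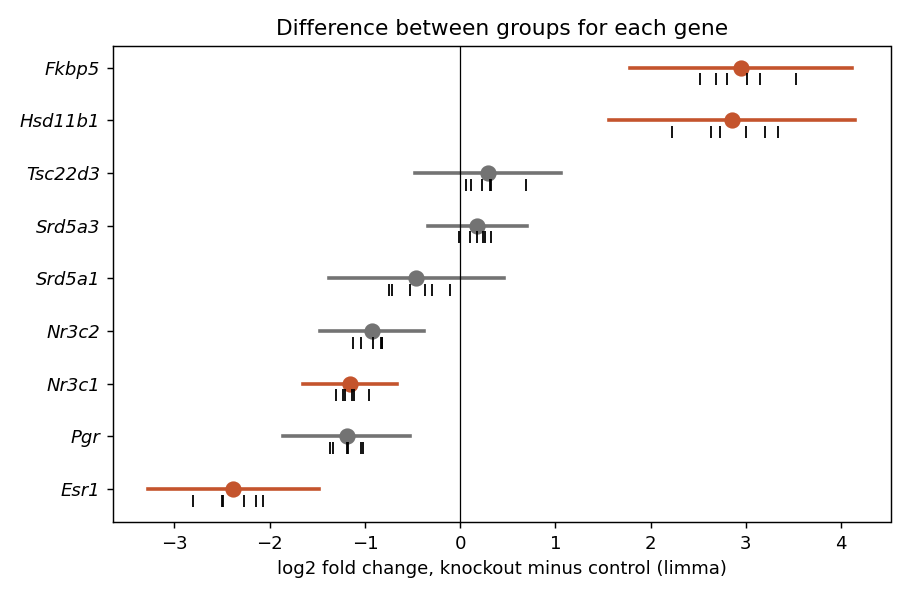
Log2 fold change of each gene, knockout minus control, from limma (dots) with 95% intervals (lines); orange marks an adjusted p under 0.05 and grey the others, and black ticks below each line are the 6 fits that left out 1 library. Fkbp5 and Hsd11b1 lie near 3, Esr1 at -2.38, and the ticks of Srd5a3 fall on both sides of 0.

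Other genes of the pathway were taken from 6 lists holding 118 further genes, of which 86 were tested. Of these, 8 were higher and 4 lower in the knockout, or 14.0% against 6.71% of all tested genes. A positive log2 fold change was found for 63 (median 0.23), where 51.2% of all tested genes had one (median 0.014). With a common total 13 were called higher, while the count over all genes went from 657 to 1057.

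Of 7 other tested receptor genes 1 rose and 1 fell, where 6.71% of all tested genes were called, and 4 had a positive log2 fold change (median 0.32). Without overlap of the groups 4 were higher and 1 lower, against 28.8% of all tested genes without overlap. Gper1, a membrane receptor reported to bind estrogen, rose from a low level, 12.7, 15.0 and 24.4 in the controls, to 44.1, 62.0 and 70.8 (1.37 ± 0.31, adjusted p = 0.0456). Without S2, S3, S5, S6 or S7 its adjusted p was between 0.0615 and 0.157. Gper1 also missed the threshold with a pseudocount of 0.1 CPM (0.0504), with no filter (0.0663) and with a common upper quartile (0.0551), and it was not tested under the filter of 5 CPM. Esr2, the other estrogen receptor gene, was at 0 to 7.84 in all 6 libraries and was not tested.

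Of 19 other tested chaperone and coregulator genes 0 passed the limma test, 3 had an unadjusted p under 0.05 (against 23.2% of all tested genes), and their median log2 fold change was 0.086. Hsp90ab1, the constitutive Hsp90 gene, was at 8551, 7306 and 7312 among controls, against 7421, 9201 and 8016 among knockouts (0.087 ± 0.18, adjusted p = 0.817). Fkbp5 was thus the one gene of its list that was called.

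Of 19 other tested enzyme genes 3 rose and 2 fell, where 6.71% of all tested genes were called, and 13 had a positive log2 fold change (median 0.25). At an unadjusted p under 0.05 there were 7 of 19, of which 2 were lower, against 23.2% of all tested genes. Beside H6pd, Cyp7b1, an oxysterol and steroid hydroxylase gene, rose from 243, 155 and 87.5 to 1061, 897 and 994 (log2 fold change 2.64 ± 0.33, adjusted p = 0.00578), and it was called in all 6 fits that left out 1 library. Cyp1b1, which hydroxylates estradiol among other substrates, rose from 3097, 1859 and 4812 to 11273, 8947 and 9412 (1.696 ± 0.33, adjusted p = 0.0276), no longer called without S2, S5, S6 or S7 (0.0649 to 0.107). Akr1c18, whose product inactivates progesterone, fell from 119, 176 and 260 in control S2, S3 and S4 to 27.5, 7.29 and 17.5 (-2.88 ± 0.40, adjusted p = 0.00823; 0.0109 to 0.0342 in the 6 fits). The sterol hydroxylase gene Cyp27a1 fell from 494, 407 and 553 to 218, 274 and 262 (-0.92 ± 0.19, adjusted p = 0.0306), no longer called without S2, S4, S5, S6 or S7 (0.0568 to 0.122) or with a common total (0.240).

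Of 26 other tested genes that glucocorticoids induce in many cell types, 3 rose and 0 fell by the limma test, and 20 had a positive log2 fold change (median 0.42). At an unadjusted p under 0.05 there were 10 of 26, of which 1 was lower, where 23.2% of all tested genes had such a p. Zbtb16, a zinc finger repressor gene, was at 689, 874 and 858 for controls against 1726, 2879 and 2859 for knockouts (1.58 ± 0.23, adjusted p = 0.00992; 0.0544 and 0.0511 without S2 or S6). The clock gene Per1 was at 1826, 2339 and 2066 and at 3354, 3661 and 4087 (0.83 ± 0.16, adjusted p = 0.0281; 0.0941 to 0.124 without S2, S6 or S7, and 0.0526 without the intensity trend). The transcription factor gene Cebpd was at 4640.2, 5096 and 4072 and at 9132, 12749 and 8252 (1.10 ± 0.22, adjusted p = 0.0283), but it missed the threshold in each fit that left out a library (0.0503 to 0.116). In Zbtb16 and Fkbp5 alike S5 was the lowest of the knockouts. Dusp1, a phosphatase gene that this list shares with the dissociation stress list, was at 30585, 41286 and 18875 in control libraries against 30386, 38196 and 16949 in knockouts (-0.092 ± 0.42, adjusted p = 0.921). The summed dissociation stress genes overlapped between the groups, at 221070 to 387640 and 168050 to 356030.

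Of 11 other tested genes induced by estrogen or progesterone receptors, 1 rose and 1 fell, and 8 had a positive log2 fold change (median 0.51). At an unadjusted p under 0.05 there were 5 of 11, of which 1 was lower, where 23.2% of all tested genes had such a p. Ccnd1, the cyclin D1 gene, was at 2268, 2585 and 2557 among controls, against 504, 342 and 468 among knockouts (-2.49 ± 0.18, adjusted p = 0.000831; 0.00207 to 0.00722 without 1 library). Tnfsf11, the RANK ligand gene, was at 0, 2.50 and 2.52 in the controls, or 0, 2 and 3 estimated reads, and at 24.5, 212 and 182 in the knockouts (adjusted p = 0.0319; 0.0767 to 0.121 without S2, S3, S6 or S7, and 0.0628 with a pseudocount of 2 CPM). Of 5 sodium channel and pump genes that respond to mineralocorticoids 0 passed the limma test, and 2 had an unadjusted p under 0.05, against the same 23.2%. The kinase gene Sgk1, which is also glucocorticoid-induced, was at 5378, 5056 and 4767 and at 6657, 6914 and 8309.7 (0.52 ± 0.17, adjusted p = 0.123).

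**Figure D4:**
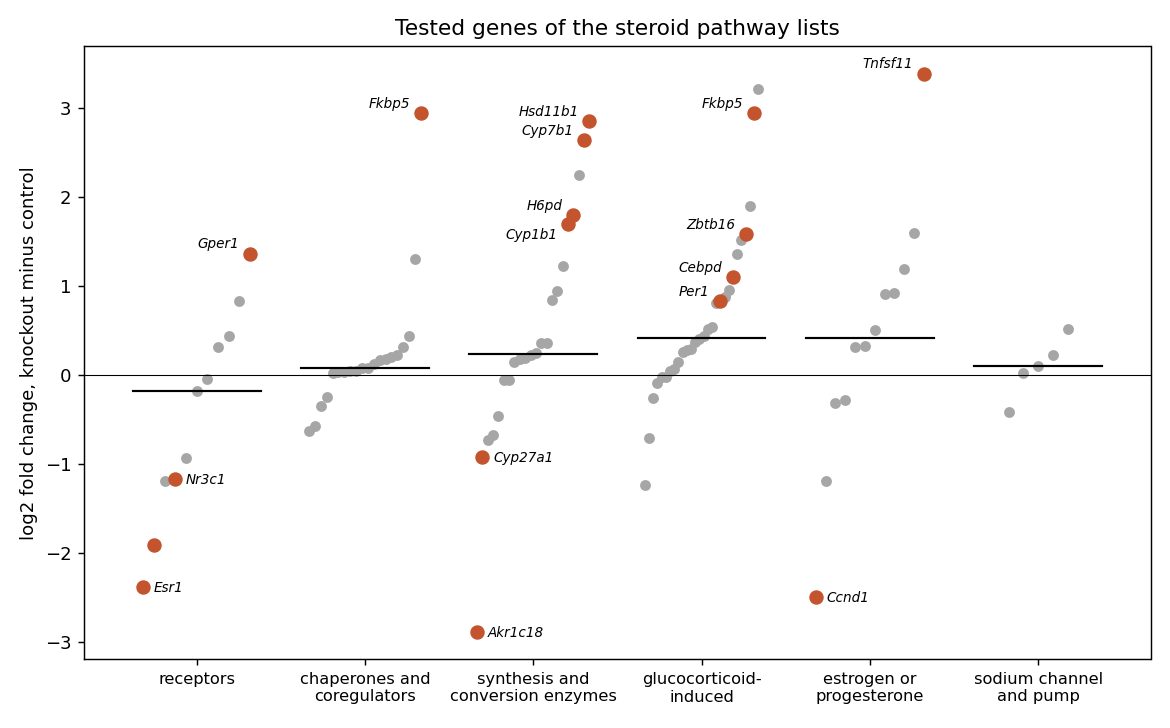
Log2 fold change, knockout minus control, of each tested gene on 6 steroid pathway lists (dots, ordered by value within a list; the 9 genes are included where a list holds them); orange where the adjusted p is under 0.05, with names for the genes described in the text, black lines are list medians. Called genes lie on both sides of 0 among receptors and enzymes and above 0 in the glucocorticoid-induced list.

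The lower receptor values were set beside fibroblast genes, fibroblasts being known to express these receptors in dermis. Of 10 fibroblast markers 3 had a positive and 7 a negative log2 fold change (median -0.61). By the limma test 2 rose and 0 fell, where 6.71% of all tested genes were called. At an unadjusted p under 0.05 there were 3 of 10, of which 1 was lower, against 23.2% of all tested genes. The groups did not overlap for 5 of the 10, 2 higher and 3 lower, against 28.8% of all tested genes. Pdgfra, a surface receptor of dermal fibroblasts, was at 10932, 11482 and 10886 for controls against 29489, 23877 and 25506 for knockouts (1.24 ± 0.21, adjusted p = 0.0165; 0.0590 to 0.0981 without S2, S6 or S7), and Pdgfrb rose likewise (1.00 ± 0.22, adjusted p = 0.0384), a call lost in each fit without 1 library (0.0531 to 0.134) and with no filter (0.0545). The collagen gene Col1a1, the highest of that list in the controls, was at 2150000, 4570000 and 1430000 in the controls and at 407740, 333930 and 400230 across the knockouts, without passing the test (adjusted p = 0.237). The part of fibroblast number or state in the lower receptor values was not tested.

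For each of the 4 called genes, the 3 genes most alike in pattern were sought by Pearson correlation of log2 values over the 6 libraries, among 10493 genes with a mean of at least 5 CPM. With 2 groups of 3 libraries many genes correlate highly, and 79 to 277 genes had a correlation above 0.95 with a given gene, so the names are a description only. Esr1 was most like Gorasp1 (0.998), Sema3c (0.996) and Arvcf (0.996), and Nr3c1 was most like Snx14 (0.997), Igfbp5 (0.997) and Mettl21a (0.996). Hsd11b1 was most like Dhps (0.996), Spats2l (0.990) and Dusp4 (0.990), and Fkbp5 was most like Aif1l (0.992), Cxcr4 (0.991) and Ppia (0.991). Sema3c, a secreted semaphorin gene, was at 6210.0, 10924 and 7003 in control libraries against 1910.2, 752 and 1018 in knockouts, so that it shared with Esr1 its highest control, S3, and its highest knockout, S5. Cxcr4, a chemokine receptor gene, was at 198, 121 and 191 and at 519.7, 819 and 1039, with S3 lowest and S7 highest as in Fkbp5.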

How the data were processed

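RNA of sorted mouse skin cells was sequenced in 3 control and 3 Zfp750 knockout samples. The authors deposited 1 table of normalized counts, taken here as a signal: estimated reads divided by 1 size factor per library, judged from the values, since 78.3% to 80.5% of values up to 1000 reads per library were whole reads within 0.05. TopHat2 2.1.0 and Partek 9.0.20.0202 are named, without roles, per the submitters' processing notes. For genome build, annotation and strand use, nothing is given in the sources used here. Of 23934 gene IDs 23221 occur in GENCODE M21 (GRCm38), of which 511 share the start, so coordinates are the table's own and exon lengths (GENCODE M21) are matched by ID. Overlapping genes are uncertain.

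Groups were compared with limma 3.58.1 in R 4.3.3 (2-sided, moderated variances that follow an intensity trend) on log2(value + 9.15), where 9.15 equals 0.5 CPM (counts scaled to the usual fixed total) at the average library total, for the 15935 genes at 1 CPM or more in at least 3 libraries. Benjamini-Hochberg adjustment ran over all tested genes and genes were called at an adjusted p under 0.05; the log2(value + pseudocount) scale understates changes of low genes. With signal values that are whole in part only, no count model was run. The procedure was tested on simulated data. Within-library ratios and marker sums were compared by exact 2-sided permutation (smallest p 0.1). The 9 genes and all lists were chosen with earlier results of these data known. From each of 6 pathway lists the called genes were named, at most 6 by adjusted p, or the 2 of highest mean where none was called. Some genes that this rule takes are not reported here. Genes outside this naming rule, picked with their values known, are Hsd11b2, Hsp90ab1, Esr2, Dusp1, Cyp11a1, Thbd and the single marker genes. Promoter windows are from RefSeq (GRCm38.p6); sequence of Nr3c1 was not used here. Alternatives were other pseudocounts (0.1 and 2 CPM), filters (none and 5 CPM), scalings, no trend, each library left out (with the same genes tested), and a block by column number.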

Additional observations from a re-analysis of the deposited data

How the results depend on the processing

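Among the 9 genes, 2 higher and 2 lower calls became 0 to 2 higher and 0 to 3 lower when 1 library was left out, and a common upper quartile gave 4 lower. Srd5a3 ran from -0.017 (without S7) to 0.32 on the log2 scale over those 6 fits, and no other member changed sign. Other pathway genes called higher went from 8 to 13 with a common total and to between 2 and 9 without 1 library, and those called lower to between 2 and 4. Over all genes, 657 higher became 1057 with a common total, 234 to 697 without 1 library and 821 with a replicate block by column number. The 413 lower became 94 to 588 without 1 library, and 706 with the replicate block by column number, which kept the 2 higher and 2 lower members. Only 2 numbers are shared between the groups. In that block fit S4 and S5, whose numbers are not shared, did not enter the group difference, which rests on S2, S3, S6 and S7. Same-numbered libraries had correlations of 0.25 and -0.22, and those with different numbers ran from -0.31 to 0.41. With so few libraries these values cannot decide whether the numbers pair the samples. The cause of these shifts was not tested. Without 1 library, log2 ratios of marker sums ran from -1.13 to 1.73 for keratinocytes, -0.24 to 0.26 for smooth muscle and pericytes, -0.35 to 0.19 for Schwann cells and melanocytes and -0.47 to 0.070 for dissociation stress. With a common total the last 2 were 0.18 and 0.097. Genes at few reads, such as Pgr with 44 to 174, are limited by depth.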

Other observations

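Cyp11a1, the gene of the enzyme that starts steroid synthesis from cholesterol, was low in every control and higher in every knockout. Its control libraries held 3.81, 3.75 and 13.5 normalized units, against 29.4, 160.4 and 53.3 in knockout S5, S6 and S7. It did not pass the limma test (log2 fold change 2.25 ± 0.57 SE, adjusted p = 0.0592), and over the 6 fits that left out 1 library its adjusted p ran from 0.0393 to 0.190. Knockout S6 was the highest, unlike Fkbp5, which was highest in S7. Thbd, the thrombomodulin gene on the glucocorticoid-induced list, went the other way without passing the test, with 1601, 1791 and 3548 for controls against 1217, 984 and 649 for knockouts (-1.23 ± 0.35, adjusted p = 0.0845).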
